A study of Homo sapiens with 6 samples.

Results

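The genes described here are the numbered zinc finger genes of the human genome, those with a symbol of ZNF followed by a number, that were detected in HEK293T cells. HEK293T is an established line derived from human embryonic kidney and expressing the large T antigen of SV40. A ZNF gene was taken in when a probe annotated to it had a detection p-value under 0.01 on both arrays of at least 1 of the 3 groups, and the probe with the highest mean signal stood for the gene. Of 455 ZNF genes on the array, 226 met this rule, among 8018 genes of any kind that met the same rule and were tested. Of the 226 genes, 224 are annotated as protein coding and 2, ZNF781 and ZNF542P, as transcribed pseudogenes. Because the genes were chosen by their detection p-values in all groups, which genes are in the list and how many arrays detect them are description and carry no test. The genes closest to the threshold inside it were ZNF597, with a deciding detection p-value of 0.00946, and ZNF658, with 0.00873. Just outside it lay ZNF273 and ZNF638, both at 0.0102.

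Cells in the control group were untransfected. In the other groups, cells in a well of a 6-well plate received 2 µg or 4 µg of a plasmid with the cloned miR-23a27a24-2 cluster. Each group had 2 arrays, labelled as biological duplicates. No group received an empty plasmid, so the amount of plasmid DNA, the transfection and the cluster itself cannot be told apart, and each group took neighbouring positions on 1 chip, so position and group cannot be told apart either. In bulk RNA of this kind, fewer cells of a type and less RNA per cell cannot be told apart.

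Most ZNF genes encode proteins with tandem C2H2 zinc fingers, each finger a small fold around a zinc ion that reads a short stretch of DNA. Many also carry a KRAB domain, which binds TRIM28 (KAP1) and through it the histone methyltransferase SETDB1 and heterochromatin proteins, so that the bound DNA, often a transposable element, is silenced. Others carry a SCAN domain for pairing, or act as activators, and a few work on RNA, ribosomes or the spindle. Many of the genes lie side by side in clusters, above all on chromosome 19, and are near copies of each other, so a probe for one may also bind the transcript of another. How far that happened was not tested.

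The plasmid's cluster gives 3 main mature miRNAs. They are shown because the plasmid given to the treated groups carries this cluster, with the seed, bases 2 to 8, in capitals. The sequences are from RefSeq, and in GRCh38.p14 all 3 lie on the minus strand of chromosome 19.
hsa-miR-23a-3p: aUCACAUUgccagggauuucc
hsa-miR-27a-3p: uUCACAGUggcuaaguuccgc
hsa-miR-24-3p: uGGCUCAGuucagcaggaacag
The mature sequences occupy chr19:13836595-13836615, chr19:13836447-13836467 and chr19:13836289-13836310 in this order. The 3 seeds differ from each other. Levels of these miRNAs were not analysed here, and seed matches in ZNF transcripts were not analysed here.

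Between 9278 and 10371 of 48701 probes were detected per array, and 199 to 222 of the 226 ZNF genes. The median number of beads behind a ZNF value was 43 or 44 per array, and the median bead standard error was between 4.33% and 4.75% of the signal. The cell line's listed markers VIM, KRT8 and KRT18 were detected on all 6 arrays, and INA and PAX2 on 0. The neurofilament gene NEFM was detected on 2, 1 and 1 arrays of the control, 2 µg and 4 µg groups, and NEFL on 2, 0 and 2. KRT19 was detected on all arrays and EPCAM on 1, at 4 µg. PTPRC, CD3E, CD14 and GFAP, markers of blood cells and glia, and CDH1, an epithelial marker, were detected on 0. Of the fibroblast and liver markers, COL1A1 was detected on 2, 1 and 1 arrays of the groups in the same order, LUM on 2, 0 and 2, and ALB on 1, 2 and 2, while COL1A2, DCN and APOA1 were detected on 0. Their part in the results was not tested.

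At 2 µg most ZNF genes that changed were higher than in untransfected cells. Of the 226 genes, 90 rose and 23 fell, and 113 did not pass the test, which was limma on normalised log2 intensities with an adjusted p below 0.05 over all 8018 genes. That is 39.8% higher and 10.2% lower, where 21.8% of all tested genes were higher and 19.8% lower. The changes at this dose exceeded 1.5-fold for 66 of the 90 genes that rose and for 14 of the 23 that fell. Gene by gene, 51 of the 90 rises and 14 of the 23 falls were called in every fit that left out 1 array. The median log2 difference was 0.26 over the ZNF genes, against 0.03 over all tested genes, and 167 of the 226 genes, or 73.9%, lay above 0, against 51.9% of all tested genes. These shares describe the list and are not a test of it, since the list was chosen with results of these arrays known.

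Genes detected on both arrays of every group did not enter through 1 group alone. There were 184 such ZNF genes, and 72 of them, 39.1%, rose at 2 µg while 19, 10.3%, fell. Among the 6820 genes of any kind detected in this way, 21.5% were higher and 18.9% lower. The median log2 difference of the 184 genes was 0.25, against 0.03 for the 6820.

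**Figure D1:**
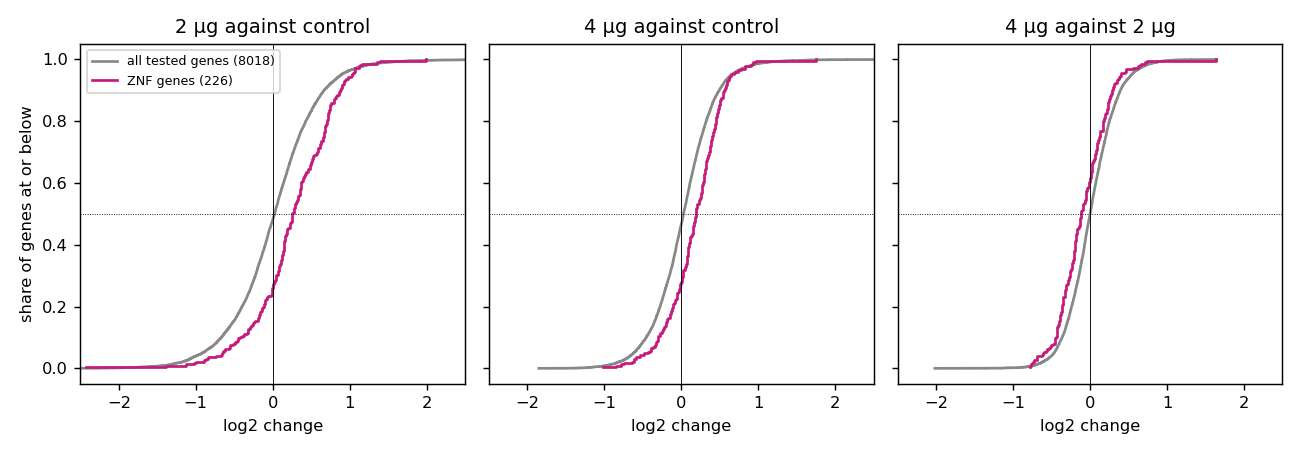
Share of genes (y axis) at or below each log2 difference in normalised intensity (x axis), for the 226 ZNF genes and all 8018 tested genes, at 2 µg and 4 µg against control and at 4 µg against 2 µg. Against control the ZNF curve crosses the middle line at medians of 0.26 and 0.18, to the right of all genes at 0.03 and 0.03, and between the doses it lies to the left, at -0.12 against 0.00.

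Both arrays of a treated group were displaced to a like degree. Taking each of the 184 genes against its control mean, the median was 0.26 and 0.25 at 2 µg, and 0.14 and 0.17 at 4 µg. The control arrays themselves differed from their mean by 0.0034 in the median, and the medians of all genes detected in every group were between 0.02 and 0.03 on the treated arrays. Each control array is part of the mean it is set against, so the 2 control values mirror each other by construction. The treated medians of all genes also lay outside those of the control arrays. The pooled SD between duplicate arrays of the median log2 level of the 226 ZNF genes was 0.0503.

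**Figure D2:**
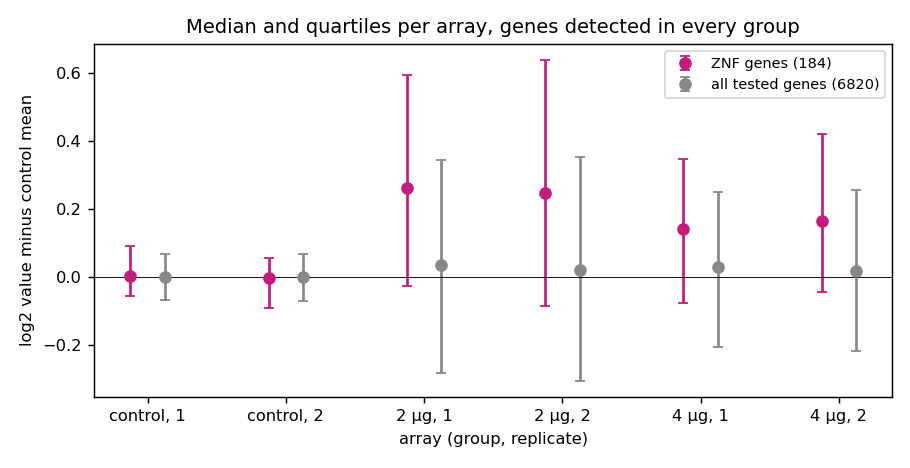
Median log2 difference from the control mean (y axis) on each of the 6 arrays (x axis), for the 184 ZNF genes and the 6820 genes of any kind detected in every group, with bars from the lower to the upper quartile over genes. The ZNF points of the 2 µg arrays are highest, at 0.26 and 0.25, and those of the 4 µg arrays lie at 0.14 and 0.17. The control points lie at 0, being set against their own mean.

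The ZNF share of rises was above that of all genes at each level of signal. The tested genes were split into 4 bins of equal size by their mean normalised intensity over all arrays, which placed 77, 71, 59 and 19 ZNF genes from the dimmest bin to the brightest. The shares of ZNF genes higher at 2 µg were 35.1%, 45.1%, 35.6% and 52.6%, against 19.5%, 25.1%, 22.4% and 20.1% of all tested genes in the same bins. The shares lower were 5.19%, 7.04%, 20.3% and 10.5%, against 18.9%, 20.8%, 21.7% and 17.9%. In the second-brightest bin the ZNF share lower was thus close to that of all genes, and the brightest bin rests on few ZNF genes.

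**Figure D3:**
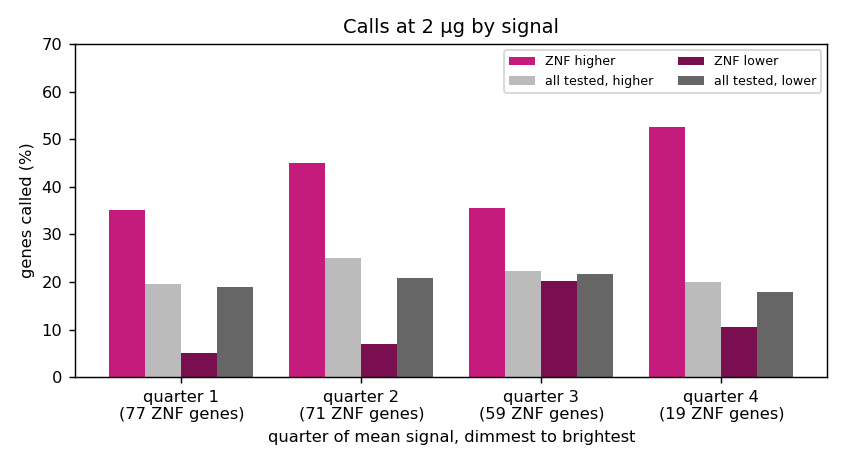
Percentage of genes called higher and lower at 2 µg (y axis) by bin of mean signal (x axis, dimmest to brightest), for ZNF genes and for all tested genes. The ZNF share higher lies above that of all genes in each bin, 52.6% against 20.1% in the brightest.

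The ZNF gene with the largest rise by the fit was ZNF165, a SCAN-domain gene known from testis and tumours. Its log2 level was 6.26 and 6.94 on the control arrays, 8.55 and 8.65 at 2 µg, and 8.29 and 8.40 at 4 µg. Treated and control arrays did not overlap, and the probe was detected on 1 of the 2 control arrays and on all treated ones. The difference at 2 µg was 2.00 (SE 0.195, adjusted p = 4.78e-05), or 3.99-fold. The gene entered the list through the treated groups, so its rise follows in part from how it entered. The adjusted p-value only describes it.

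ZNF140, which encodes a KRAB repressor, was not detected on either control array, where its level was 6.25 and 6.06. It was 7.20 and 7.88 at 2 µg, which is at least 2.13-fold higher than the detection limit on the control arrays (adjusted p = 0.000679), and 6.56 and 6.97 at 4 µg. ZNF473 encodes ZFP100, a part of the U7 particle that trims histone mRNA ends, and it too was undetected in control, at 5.88 and 6.18. Its level was 7.13 and 7.07 at 2 µg, at least 1.57-fold higher (adjusted p = 0.000229), and 6.35 and 6.31 at 4 µg. The 2 µg arrays were above the control arrays for both genes, and above the 4 µg arrays. Neither gene was detected in control, so each entered the list through a treated group. Their rises follow in part from how they entered, and the adjusted p-values only describe them. The same holds below for the rise or fall of any gene detected on fewer than 2 arrays of a compared group.

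ZNF85, a KRAB repressor gene of the chromosome 19 clusters, had levels of 7.17 and 6.51 in control, 8.34 and 8.04 at 2 µg, and 7.83 and 7.70 at 4 µg. The rise at 2 µg was 1.36 on the log2 scale (SE 0.201, adjusted p = 0.000502). ZNF84, another KRAB gene, stood at 8.57 and 8.66 in control, 9.69 and 9.85 at 2 µg, and 9.29 and 9.49 at 4 µg, a difference of 1.16 at 2 µg (SE 0.135, adjusted p = 0.000127). For both genes every treated array was above every control array. ZNF416 was at 6.95 and 6.74 in control and at 8.01 and 7.94 at 2 µg (difference 1.14, SE 0.130, adjusted p = 0.000115), with 7.20 and 7.25 at 4 µg between the other groups.

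ZNF569, a KRAB gene whose product represses MAPK-dependent transcription in reporter assays, rose from 10.62 and 10.21 to 11.44 and 11.54 at 2 µg, by 1.07 (adjusted p = 0.00048). ZNF365, linked to centrosome and genome stability, went from 8.11 and 8.13 to 9.09 and 9.29, also by 1.07 (adjusted p = 0.000212). ZNF777 went from 7.32 and 7.52 to 8.58 and 8.36, by 1.05 (adjusted p = 0.000374). ZNF79, undetected in control, was at least 1.28-fold higher at 2 µg (adjusted p = 0.000225). In each of these 4 genes the 2 µg arrays lay above the control arrays without overlap.

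The largest fall was in ZNF467, which encodes a transcriptional cofactor whose mouse counterpart favours fat cell over bone cell formation. Its level was 8.02 and 7.99 in control, 5.36 and 5.80 at 2 µg, where it was not detected, and 7.14 and 7.30 at 4 µg. At 2 µg it was at least 2.85-fold lower than in control (adjusted p = 5.43e-06). It entered the list through the other groups, so this fall follows in part from how it entered, and the adjusted p-value only describes it. The 3 groups did not overlap, and the 4 µg arrays lay between the others. ZNF488, whose mouse counterpart works with Olig2 in oligodendrocyte formation, went from 9.15 and 8.95 to 7.66 and 7.66 at 2 µg and to 8.08 and 7.97 at 4 µg. It fell by 1.39 on the log2 scale at 2 µg (SE 0.131, adjusted p = 4.08e-05).

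ZNF704 went from 8.13 and 8.06 to 7.04 and 6.88, and fell by 1.13 at 2 µg (adjusted p = 0.000103). ZNF786 fell by 1.03 (adjusted p = 0.00024), and ZNF14 by 1.00 (adjusted p = 0.000345), from 11.93 and 11.98 to 10.83 and 11.10. ZNF526, ZNF398 and ZNF83 fell by 0.89, 0.86 and 0.67, with adjusted p of 0.000502, 0.000858 and 0.004. Of these 6 genes, each had its 2 µg arrays below its control arrays. ZNF385B and ZNF521, a regulator of blood and neural progenitors, fell by 0.84 and 0.73, but their calls did not hold when single arrays were left out. For ZNF385B the adjusted p was 0.116 and 0.0936 when control replicate 1 or 2 was left out, and 0.152 when 2 µg replicate 1 was. That of ZNF521 was 0.168 without control replicate 1 and 0.151 without 2 µg replicate 1.

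**Figure D4:**
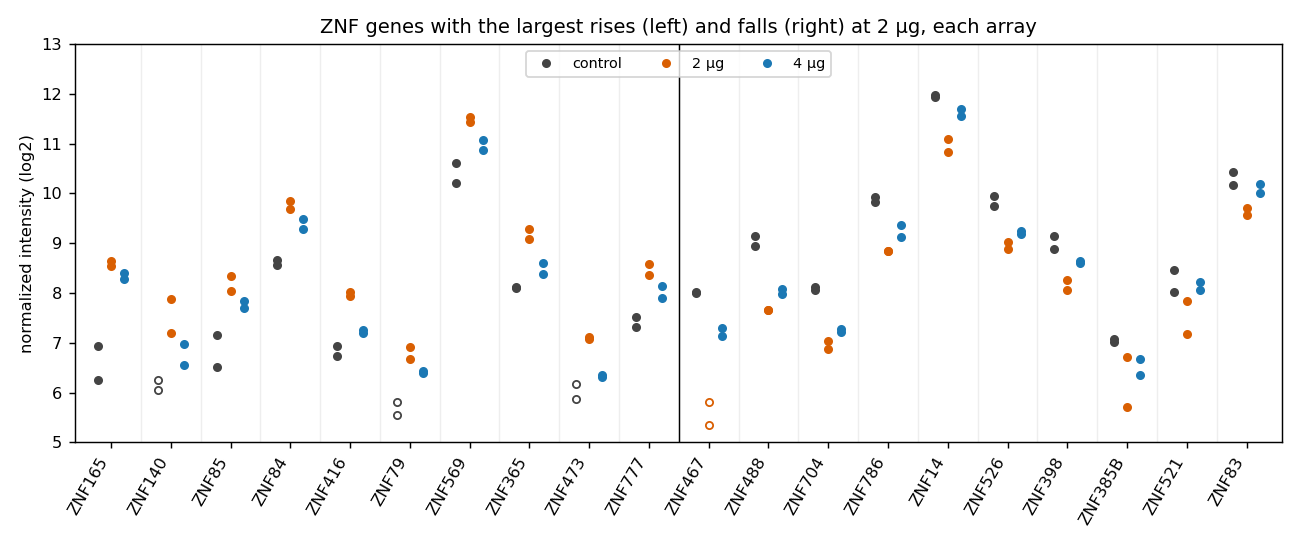
Normalised log2 intensity (y axis) of the 10 ZNF genes with the largest rises and the 10 with the largest falls at 2 µg (x axis), with 1 point for each array, coloured by group. ZNF165 rises from 6.26 and 6.94 in control to 8.55 and 8.65 at 2 µg, and ZNF467 falls from 8.02 and 7.99 to 5.36 and 5.80. Open points are groups in which the gene was detected on 0 arrays.

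Of a list of 42 ZNF genes with a described role, 31 were tested. Those called at 2 µg moved in both directions, and others did not pass the test. Among the factors that act at chromatin, ZNF644, whose product works with the G9a and GLP methyltransferases, rose by 1.02 at 2 µg (SE 0.169, adjusted p = 0.000958), from 8.62 and 8.65 to 9.44 and 9.87. ZNF350, a partner of BRCA1 in repressing GADD45A, was at 7.50 and 7.41 in control and at 8.34 and 8.33 at 2 µg, a rise of 0.87 (SE 0.134, adjusted p = 0.000615). ZNF202, a repressor of lipid transport genes, rose by 0.75 (adjusted p = 0.00225), and ZNF10, the gene whose KRAB domain is used in repressor fusions, by 0.68 (adjusted p = 0.00481). In these 4 genes the 2 µg arrays were above the control arrays without overlap.

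ZNF274, which brings SETDB1 to other zinc finger genes, was at 9.21 and 9.20 in control and at 9.68 and 10.16 at 2 µg, a rise of 0.71 (adjusted p = 0.00891, but 0.0657 without 2 µg replicate 2). ZNF410, known as an activator of CHD4, rose by 0.67 (adjusted p = 0.00617, but 0.052 without control replicate 2). ZNF143, an activator that binds at many promoters, had a difference of 0.36 with adjusted p = 0.0386. Its call was lost in each of the 6 fits that left out 1 array, with adjusted p between 0.063 and 0.163. The control values of ZNF143 were 8.41 and 8.29, and both 2 µg arrays read 8.71.

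Genes that work on RNA, ribosomes or the spindle were also among those that rose. ZNF207 (BuGZ), which carries the checkpoint protein BUB3 to kinetochores, was at 10.96 and 11.22 in control, 12.01 (mean, SD 0.0213, n = 2) at 2 µg, and 11.35 and 11.19 at 4 µg. It rose by 0.93 at 2 µg (SE 0.138, adjusted p = 0.000521). ZNF593 and ZNF622, the human counterparts of yeast factors for the large ribosomal subunit, rose by 0.71 (adjusted p = 0.00237) and 0.67 (adjusted p = 0.00252). For all 3 genes the 2 µg arrays did not overlap the control arrays.

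Some genes with a described role fell. ZNF618, a partner of UHRF2 at hydroxymethylated DNA, fell by 0.66 (adjusted p = 0.00278), and ZNF668, linked to DNA repair, was at least 1.28-fold lower at 2 µg, where it was not detected (adjusted p = 0.00861). ZNF395, a hypoxia-induced gene, and ZNF462 each fell by 0.45, with adjusted p of 0.0158 and 0.0199. Without control replicate 2 those p-values were 0.0723 and 0.1, and ZNF395 had 0.071 without 2 µg replicate 2 and ZNF462 had 0.068 without 2 µg replicate 1. The repressor of SVA elements ZNF91 did not pass the test (difference 0.37, SE 0.297, adjusted p = 0.339), with overlapping values of 6.06 and 6.86 in control and 6.39 and 7.28 at 2 µg. ZNF281 and ZNF318 had differences of 0.02 and 0.00 with SEs of 0.141 and 0.129, and did not pass. From the same list, ZNF146, ZNF148, ZNF174, ZNF217, ZNF263, ZNF300, ZNF335, ZNF503, ZNF687, ZNF706 and ZNF827 did not pass at 2 µg either.

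Partners of KRAB proteins and general silencing factors are described next, as 1 list. Of a list of 37 corepressor and heterochromatin genes, 22 were tested. Of those 22, 2 rose (9.09%) and 5 fell (22.7%) at 2 µg, against 21.8% and 19.8% of all tested genes. The median difference was 0.04. The share that fell is near that of all genes. TRIM28 itself had a difference of 0.04 (adjusted p = 0.87) and SETDB1 of 0.35 (adjusted p = 0.0782). The genes that rose were SMARCAD1, a chromatin remodeller (0.67, adjusted p = 0.00223), and the DNA methyltransferase gene DNMT1 (0.43, adjusted p = 0.024). The call of DNMT1 was lost with the authors' processed values (0.0651), with scaling by the median of all probes (0.179) or of the tested genes (0.136), and when control replicate 1 (0.117), control replicate 2 (0.0544) or 2 µg replicate 1 (0.112) was left out. Those that fell included RBBP7 (by 0.57, adjusted p = 0.00504), the heterochromatin protein gene CBX3 (by 0.53, adjusted p = 0.0108, but 0.0842 without control replicate 2), MTA1 (by 0.51, adjusted p = 0.0112, but 0.0718 without control replicate 2 and 0.0582 without 2 µg replicate 1) and CHD4 (by 0.52, adjusted p = 0.0158, but 0.109 without control replicate 2 and 0.0716 without 2 µg replicate 2). MORC2 also fell, by 0.44 (adjusted p = 0.015). DNMT1, CHD4 and MORC2 were named after their values were seen.

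Chromosome 19 holds 107 of the 226 genes. Of those, 43 rose and 10 fell at 2 µg, which is 40.2% and 9.35%, with a median log2 difference of 0.29. The other 375 tested genes of chromosome 19 went the other way in the balance of their calls, with 46 higher (12.3%) and 114 lower (30.4%) and a median that lay below 0, at -0.15. Of the 119 ZNF genes on other chromosomes, 47 rose and 13 fell, with a median of 0.24. The difference between ZNF genes on and off chromosome 19 was not tested. ZNF genes with another tested ZNF gene in the same run of neighbours had 58 rises and 11 falls among 129, with a median of 0.33, and those alone had 32 and 12 among 97, with a median of 0.14. These are 45% higher and 8.53% lower, and 33% and 12.4%, where 21.8% and 19.8% of all tested genes were. The difference between these sets was not tested either.

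A run was taken as neighbouring zinc finger genes with at most 2 other genes between them, in the order RefSeq gives. In the run near the end of chromosome 12, the 4 tested genes ZNF26, ZNF84, ZNF140 and ZNF10 all rose at 2 µg. ZNF10, ZNF26 and ZNF84 rose by 0.68, 1.05 and 1.16 on the log2 scale, and ZNF140, undetected in control, was at least 2.13-fold higher. The rise of ZNF140 follows in part from its entry through the treated groups. ZNF26 was at 8.81 and 8.85 in control, 9.98 and 9.77 at 2 µg, and 8.95 and 9.33 at 4 µg. In the run from ZIM3 to ZBTB45 on chromosome 19, 12 of 21 tested ZNF genes rose (57.1%) and 0 fell at 2 µg by limma. All 21 differences were above 0. Its genes detected in both groups ranged from 0.06 for ZNF324 to 1.14 for ZNF416. The run from ZNF577 to ZNF331, also on chromosome 19, had 7 rises (43.8%) and 3 falls (18.8%) among 16 genes. The run from ZNF283 to ZNF180 had 4 rises (28.6%) and 2 falls (14.3%) among 14. For comparison, 39.8% of all 226 ZNF genes were higher and 10.2% lower, and 21.8% and 19.8% of all tested genes. Differences between runs were not tested.

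Neighbours also moved apart. In the run from ZNF786 to ZNF862 on chromosome 7, 4 of 8 tested genes rose (50%) and 3 fell (37.5%) at 2 µg. Among those detected in both groups the differences ran from -1.03 for ZNF786 to 1.05 for ZNF777, and ZNF467, undetected at 2 µg, was at least 2.85-fold lower. ZNF467, ZNF786 and ZNF398 fell there, while ZNF777 and ZNF425 were among those that rose, the latter by 0.80 (adjusted p = 0.0095, but 0.092 without control replicate 2 and 0.0773 without 2 µg replicate 2). In the run from ZNF699 to ZNF846 on chromosome 19, 0 of 5 genes passed the test at 2 µg by limma, with differences between 0.09 and 0.33. How alike the genes of a run are in sequence was not tested, so they are not taken as independent measurements.

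**Figure D5:**
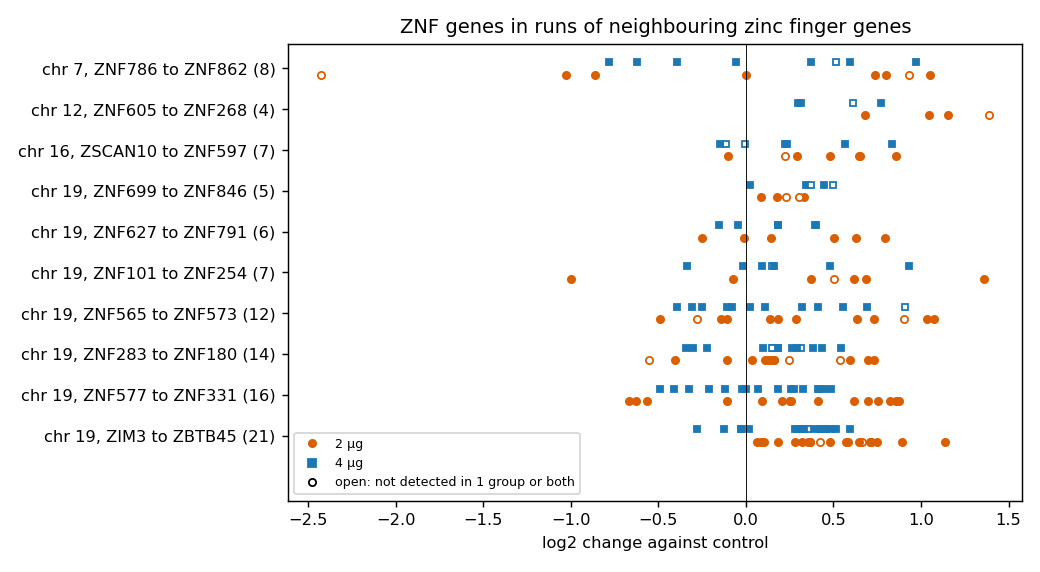
Log2 difference from control (x axis) of each tested ZNF gene (points) in runs of at least 4 neighbouring members (rows), at 2 µg and 4 µg (colours). All 4 genes of the chromosome 12 run and all 21 of the run from ZIM3 to ZBTB45 lie above 0 at 2 µg, while the chromosome 7 run holds filled points from -1.03 to 1.05. Open points are genes not detected in the control or at that dose, whose place is only the fitted value.

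Promoter sequence is shown because many of the genes were higher at the same dose. RefSeq promoters of GRCh38.p14, from 250 bases before the start of a gene to 50 bases after it, were found for 192 of the 226 genes. They are given below for ZNF26 and ZNF140 of the chromosome 12 run, for ZNF416 and ZNF85 of chromosome 19, which all rose, and for ZNF467, which fell. Capitals mark the letters CCGGAAG, the core of ETS factor sites, and the ACTACA-containing core of ZNF143 sites, on either strand.
ZNF26, chr12:132986117-132986416, plus strand: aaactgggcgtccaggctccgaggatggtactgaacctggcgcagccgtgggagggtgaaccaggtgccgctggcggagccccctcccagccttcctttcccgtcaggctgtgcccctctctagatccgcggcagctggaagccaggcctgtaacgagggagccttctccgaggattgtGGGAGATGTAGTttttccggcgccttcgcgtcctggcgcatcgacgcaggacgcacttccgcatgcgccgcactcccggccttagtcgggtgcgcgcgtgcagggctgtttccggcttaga
ZNF140, chr12:133080673-133080972, plus strand: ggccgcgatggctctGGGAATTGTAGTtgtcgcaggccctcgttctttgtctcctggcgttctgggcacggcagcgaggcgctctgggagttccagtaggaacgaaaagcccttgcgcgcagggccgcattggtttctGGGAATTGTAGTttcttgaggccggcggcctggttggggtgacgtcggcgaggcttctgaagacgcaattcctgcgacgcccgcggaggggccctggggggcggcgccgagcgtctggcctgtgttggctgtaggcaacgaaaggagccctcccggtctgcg
ZNF416, chr19:57578862-57579161, minus strand: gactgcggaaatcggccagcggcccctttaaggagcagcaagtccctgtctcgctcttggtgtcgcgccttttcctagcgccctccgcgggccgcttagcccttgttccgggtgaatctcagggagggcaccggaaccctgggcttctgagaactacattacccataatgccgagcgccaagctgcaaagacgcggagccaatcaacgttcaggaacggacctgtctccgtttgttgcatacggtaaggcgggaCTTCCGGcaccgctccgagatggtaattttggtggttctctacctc
ZNF85, chr19:20923001-20923300, plus strand: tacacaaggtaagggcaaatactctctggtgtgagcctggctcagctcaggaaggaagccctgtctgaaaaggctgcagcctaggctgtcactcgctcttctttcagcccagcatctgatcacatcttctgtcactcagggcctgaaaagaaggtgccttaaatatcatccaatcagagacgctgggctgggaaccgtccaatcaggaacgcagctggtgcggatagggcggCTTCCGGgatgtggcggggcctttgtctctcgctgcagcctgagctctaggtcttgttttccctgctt
ZNF467, chr7:149773539-149773838, minus strand: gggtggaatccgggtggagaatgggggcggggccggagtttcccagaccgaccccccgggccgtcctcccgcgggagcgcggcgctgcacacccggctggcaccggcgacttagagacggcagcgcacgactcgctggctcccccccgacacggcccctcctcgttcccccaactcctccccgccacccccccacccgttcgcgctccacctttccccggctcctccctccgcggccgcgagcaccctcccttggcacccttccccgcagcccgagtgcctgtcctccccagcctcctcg

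In these stretches the ZNF143 letters were found in the promoter of ZNF26 and at 2 places in that of ZNF140, in each case on the opposite strand. The ETS letters were found in the promoters of ZNF416 and ZNF85. Neither was in the stretch of ZNF467. The promoters printed are examples and do not stand for the others. ZNF84 and ZNF10 of the chromosome 12 run also rose, and their promoters held neither motif. Among genes that fell, ZNF160, ZNF362 and ZNF668 held the ETS letters, and ZNF358 and ZNF573 the ZNF143 letters.

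The ETS letters were found in 76 of the 192 ZNF promoters, or 39.6%, against 20.8% of the promoters of all tested genes and 10.7% of all 27305 promoters. Of the ZNF genes that rose, 35 of 80 (43.8%) held them, and of those that did not pass the test, 38 of 97 (39.2%). Of the genes that fell, only 15 of 23 had a promoter, too small a share for the count to be read. The letters were in 3 of those 15, or 20.0%. The ZNF143 letters were in 23 ZNF promoters, or 12%, against 4.21% of tested genes, with 12.5% among the ZNF genes that rose, 11.3% among those that did not pass and 2 of the 15 that fell. No difference between these shares was tested.

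In all, 15 motifs were searched on both strands, chosen with the results known, and the shares of ZNF promoters are given here against those of all tested genes. The letters CCAAT of the CCAAT box were in 49.5% against 38.5%. The cyclic AMP response element TGACGTCA was in 6.25% against 3.46%, and the AP-1 letters TGANTCA were in 6.25% against 4.42%. The SP1 letters GGGCGG were in 59.9% against 70.6% and the TATA box letters TATAAA in 2.08% against 5.62%. The E box CACGTG was in 5.73% against 10.9%, and the YY1 letters ATGGCGG were in 8.85% against 11.4%. The ATF4 letters TGATGNAAN were in 2.08% against 1.88%, and the E2F letters TTTCGCGC in 0 of 192 against 1.25%. A second form of the ZNF143 motif that overlaps the first was in 2.6% against 0.612%, the NRF1 motif in 3.12% against 2.42%, the NF-kB motif in 0.521% against 2.31%, and the KAISO palindrome in 0 of 192 against 1.07%. The median GC content was 61.3% in ZNF promoters and 65.0% in those of tested genes. A match is a run of letters and not a site shown to be bound.

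At 4 µg fewer ZNF genes passed the test, and again more of them were higher than lower. Of the 226 genes, 42 rose (18.6%) and 11 fell (4.87%), and 173 did not pass, where 11.8% of all tested genes were higher and 10.2% lower. Of the 184 genes detected on both arrays of every group, 31 rose (16.8%) and 9 fell (4.89%), against 10.6% and 9.71% of all such genes. The median log2 difference was 0.18, against 0.03 over all tested genes, and 163 of the 226 genes, or 72.1%, lay above 0. In every fit that left out 1 control or 4 µg array, far fewer ZNF genes passed. The ZNF share higher was then only slightly above that of all tested genes. ZNF medians in fits that left out 1 array lay between 0.167 and 0.215, against 0.0231 to 0.033 over all tested genes. Only ZNF165, ZNF502, ZNF558, ZNF84 and ZNF438 were called higher each time. Both doses were set against the same control arrays, so their values are given side by side and no agreement between them is drawn.

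ZNF165 had the largest rise at 4 µg too, by 1.74 (SE 0.195, adjusted p = 0.000411). ZNF502, not detected in control at 5.76 and 6.07, was at 6.85 and 6.81, at least 1.31-fold higher (adjusted p = 0.00434). ZNF558 was at 7.15 and 6.86 in control and at 7.85 and 7.80 at 4 µg, a rise of 0.82 (SE 0.150, adjusted p = 0.00452), and ZNF84 rose by 0.77 (adjusted p = 0.00368). The 4 µg arrays of these 4 genes lay above the control arrays without overlap.

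Other calls of a rise at 4 µg were lost when single arrays were left out, where each fit has fewer arrays. Differences in those fits lay between 0.53 and 0.93 for ZNF425, ZNF85 and ZNF75A, and between 0.36 and 0.73 for ZNF420. ZNF425 rose by 0.97 (adjusted p = 0.00829, but 0.072 without control replicate 2 and 0.0599 without 4 µg replicate 2), and ZNF85 by 0.93 (adjusted p = 0.00969, but 0.0636 without control replicate 2 and 0.0561 without 4 µg replicate 1). ZNF420, known as an inhibitor of p53, rose by 0.69 (adjusted p = 0.0319), but its adjusted p was 0.145 without control replicate 1, 0.104 without control replicate 2 and 0.26 without 4 µg replicate 2. ZNF383, not detected in control, was at least 1.13-fold higher (adjusted p = 0.0152), with 0.0791, 0.0815 and 0.0869 without control replicate 1, control replicate 2 and 4 µg replicate 1. ZNF75A rose by 0.83 (adjusted p = 0.0207), with 0.148 when control replicate 2 was left out and 0.107 and 0.0505 when 4 µg replicate 1 or 2 was. ZNF79, not detected in control and on 1 of 2 arrays at 4 µg, passed the test (adjusted p = 0.00653, but 0.0569 without control replicate 1) with a bound too low to give a fold.

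ZNF488 fell by 1.02 at 4 µg (SE 0.131, adjusted p = 0.000829), ZNF704 by 0.85 (adjusted p = 0.00176) and ZNF362 by 0.74 (SE 0.125, adjusted p = 0.00311). ZNF362 was at 9.31 and 9.25 in control, 8.61 and 8.65 at 2 µg, and 8.60 and 8.47 at 4 µg. These 3 genes had every treated array below every control array and were called lower in each fit that left out 1 array. ZNF467 fell by 0.78 (adjusted p = 0.00757, but 0.0519 without control replicate 1, 0.0585 without 4 µg replicate 1 and 0.124 with the authors' processed values). ZNF526 fell by 0.64 (adjusted p = 0.00826, but 0.0638 and 0.0644 without the same arrays), and ZNF786 by 0.62 (adjusted p = 0.00947, but 0.0638 and 0.0995).

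ZNF711, which binds the demethylase PHF8, was at 8.77 and 8.53 in control, 8.63 and 8.82 at 2 µg, and 7.92 and 8.30 at 4 µg. It fell by 0.53 at 4 µg (adjusted p = 0.0383), with 0.199 without control replicate 1, 0.0654 without control replicate 2 and 0.287 without 4 µg replicate 1. ZNF280B and ZNF160 fell by 0.59 and 0.49, with adjusted p of 0.0231 and 0.0324. Leaving out control replicate 1, 4 µg replicate 1 or 4 µg replicate 2 gave 0.15, 0.141 and 0.0683 for ZNF280B and 0.181, 0.216 and 0.0729 for ZNF160. ZNF575 was not detected at 4 µg and was at least 1.13-fold lower (adjusted p = 0.0461), a call that was lost without any 1 of the control or 4 µg arrays, with 0.19, 0.119, 0.0665 and 0.243.

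Of the corepressor genes, 0 rose and 2 fell (9.09%) at 4 µg by limma, against 11.8% and 10.2% of all tested genes. Those that fell were RBBP7 and CHD4, each by 0.56. The adjusted p of RBBP7 was 0.0117, but 0.0692, 0.0753 and 0.0751 when control replicate 2, 4 µg replicate 1 or 4 µg replicate 2 was left out. That of CHD4 was 0.0218, but 0.131 and 0.182 when control replicate 2 or 4 µg replicate 2 was, 0.062 with the authors' processed values and 0.053 with no detection filter. Scaling by the median of all probes ended both calls (0.137 and 0.138). On chromosome 19, 16 ZNF genes rose and 4 fell, with a median of 0.18, while 6.13% of the other tested genes there were higher and 18.4% lower. On other chromosomes 26 ZNF genes rose and 7 fell. In the run from ZIM3 to ZBTB45 2 genes rose (9.52%) at 4 µg and 17 of 21 differences lay above 0. In the chromosome 12 run only ZNF84 passed the test.

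Between the doses most ZNF genes did not pass the test. At 4 µg, 5 genes were higher than at 2 µg (2.21%) and 12 lower (5.31%), and 209 did not pass, where 5.23% of all tested genes were higher and 3.57% lower. Among the 184 genes detected in every group, 1 was higher and 9 lower (0.543% and 4.89%, against 4.15% and 3.4% of all such genes). The median log2 difference was -0.12, against 0.00 over all tested genes, and 90 of the 226 genes lay above 0. Leaving out 1 array at a time gave 1 to 8 genes higher and 0 to 11 lower, and only ZNF467 kept its call each time.

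ZNF467 was at least 1.66-fold higher at 4 µg than at 2 µg (adjusted p = 0.00124), where it was not detected. This difference too follows in part from how the gene entered the list. ZNF404 and ZNF280D were also called higher at 4 µg, but their calls did not hold when single arrays were left out. ZNF14 was higher by 0.66 (adjusted p = 0.019), and ZNF668, not detected at 2 µg, at least 1.47-fold higher (adjusted p = 0.011). Leaving out 2 µg replicate 1, 4 µg replicate 1 or 4 µg replicate 2 ended both calls, with 0.087, 0.079 and 0.135 for ZNF14 and 0.0544, 0.0689 and 0.0835 for ZNF668.

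Among the genes that rose at 2 µg, the 4 µg level of ZNF416 lay below the 2 µg level, with a difference of -0.75 (adjusted p = 0.0104, but 0.0745 and 0.0659 when 4 µg replicate 1 or 2 was left out). ZNF26 had a difference of -0.73 (adjusted p = 0.0193, but 0.0926 and 0.167 when 2 µg or 4 µg replicate 1 was). ZNF207 and ZNF473 had differences of -0.75 and -0.77 (adjusted p = 0.013 and 0.0114). Leaving out 2 µg replicate 1, 4 µg replicate 1 or 4 µg replicate 2 gave 0.0561, 0.0542 and 0.102 for ZNF207 and 0.0545, 0.0676 and 0.0824 for ZNF473. The 2 µg arrays of these 4 genes lay above the 4 µg arrays without overlap. The largest fall between the doses by the fit was in ZNF766, at -0.778, which had risen at 2 µg by 0.757. Its call was lost whenever 1 array of either dose was left out, with differences between -0.798 and -0.757.

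The genes not detected in every group numbered 42, and their calls follow in part from how they entered. Of the 15 genes detected on both arrays of each treated group but not of the control, 9 were called higher at 2 µg and 0 lower by limma. Of the 8 detected on both arrays at 2 µg alone, 7 were higher and 0 lower. Of the 11 detected on both arrays at 4 µg alone, 2 were higher and 1 lower at 2 µg, and 4 higher and 0 lower at 4 µg. Of all tested genes, 21.8% were higher and 19.8% lower at 2 µg, and 11.8% and 10.2% at 4 µg. Shares over all genes with the same detection pattern were not analysed here. Of the 4 detected on both arrays of the control alone, 1 was called lower at each dose. ZNF408, ZNF507 and ZNF229, named after their values were seen, were undetected in control and at least 1.5-fold, 1.42-fold and 1.34-fold higher at 2 µg, with adjusted p of 0.00217, 0.00341 and 0.00517.

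Where a gene had several detected probes, which was so for 6 ZNF genes, 0 had probes called in opposite directions at 2 µg by limma. Both probes of ZNF207 were called higher and both of ZNF618 lower. For ZNF789 the brighter probe, which stands for the gene, differed by -0.46 (adjusted p = 0.0721) and the other by -0.50 (adjusted p = 0.0176), so that the call depended on the probe.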

How the data were processed

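Total RNA was hybridised to Illumina Human-6 arrays, 2 for each of 3 groups. The authors deposited a mean bead intensity per probe and array, not normalised. It came from BeadStudio, per the submitters' processing notes, with no version named there. A detection p-value and a count of beads per probe were deposited beside it, per the file headers. The authors' processed table was used as an alternative only.

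Intensities were corrected and quantile normalised with neqc of limma 3.58.1 in R 4.3.3, with an offset of 16, and put on the log2 scale. The 10021 probes with a detection p-value under 0.01 on both arrays of a group were kept, and 1 probe, the brightest, for each of 8018 genes. Gene names came from the platform annotation, which gave 1 symbol to 23687 probes, several to 35 and none to 24979. The 3 groups were fitted together with lmFit and eBayes, which left 3 residual degrees of freedom and added 7.43 prior ones, and p-values were adjusted by Benjamini-Hochberg over all 8018 genes. The fit was tested on simulated data. The 2 arrays of a group are the only replicates, and their number limits the precision.

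A probe detected on no array of a group has only a bound there, given as "at least" against the detection limit of those arrays. Named genes were those with the largest called differences each way in each comparison, up to 10, and a list of ZNF genes with known roles. Members and lists were chosen with earlier results of these data known. Sequences came from RefSeq. Protein domains and finger counts were not analysed here.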

Additional observations from a re-analysis of the deposited data

How the results depend on the processing

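At 2 µg the numbers of ZNF genes higher and lower kept within 1.5 times of 90 and 23 in each alternative run. However, only 51 of the 90 rises and 13 of the 23 falls were called in every setting in which the gene was tested. Genes not detected on all 6 arrays were absent from the setting that required this, and that absence was not counted as a lost call. The median difference was 0.19 with normexp and 0.34 with the authors' processed values, and 0.26 to 0.31 with 1 array left out. At 4 µg, scaling by the median of all probes gave 75 higher and 5 lower with a median of 0.35, but it moved the median of all tested genes to 0.18 and their split to 1601 higher and 357 lower, from 943 and 818. Scaling by the median of the tested genes gave a ZNF median of 0.13, the authors' processed values gave 5 lower and a median of 0.28, and no detection filter gave 21 higher and 6 lower. Leaving out 1 array gave medians of 0.17 to 0.21. Without a 2 µg array, which is not part of this comparison, 53 were higher and 13 lower. Without any 1 of the control or 4 µg arrays far fewer passed, and the ZNF share higher was only slightly above that of all tested genes. Between the doses, scaling by the median of all probes turned the median to 0.0632, where that of all genes moved to 0.15, with 14 higher and 7 lower. Normexp gave 8 higher and 21 lower, no detection filter 3 and 5, and detection on all 6 arrays 1 higher. Leaving out 1 array gave 1 to 8 higher, 0 to 11 lower and medians of -0.12 to -0.08. The causes of these changes were not tested. No named gene reversed a call. Of 95 calls among the 216 values of named genes, 28 were lost without 4 µg replicate 1, 27 without control replicate 2, 25 without 4 µg replicate 2, 21 without control replicate 1, 16 and 12 without 2 µg replicate 1 or 2, 21 with no detection filter, 14 with scaling by the median of all probes and 10 with the authors' processed values. With the replicate block the counts higher and lower were 89 and 23 at 2 µg, 40 and 10 at 4 µg, and 5 and 14 between doses. Same-numbered arrays did not deviate together (correlations of -0.04, -0.09 and 0.11), so the numbers do not pair the samples.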

Other observations

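Rises against control were also called in other families of zinc finger genes by the same limma test. Their shares are given with those of all tested genes. Falls were found among the ZBTB genes and among the KLF and SP genes. Of 24 tested genes with a ZBTB symbol, 9 rose (37.5%) and 4 fell (16.7%) at 2 µg, and 4 rose (16.7%) and 3 fell (12.5%) at 4 µg. At 4 µg, 11.8% of all tested genes were higher and 10.2% lower. ZBTB21 rose by 1.31 on the log2 scale at 2 µg, and ZBTB16 (PLZF), a transcriptional repressor, fell by 1.77. The symbol ZBTB8OS in this count does not encode a ZBTB protein. Of 16 ZSCAN and ZKSCAN genes, 3 rose (18.8%) and 0 fell at 2 µg, among them ZSCAN16 by 0.92. The share that rose is near the 21.8% of all tested genes.

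Of 15 KLF and SP genes, 6 rose (40%) and 3 fell (20%) at 2 µg, with KLF6 higher by 1.18 and SP8 lower by 0.82 (difference -0.82). Of 11 genes with a ZFP symbol, 6 rose (54.5%) and 0 fell at 2 µg. The largest of these rises, 1.25, was in ZFP36 (tristetraprolin), a CCCH finger protein that binds AU-rich mRNA and is not of the C2H2 kind. The shares of all tested genes called at 2 µg were 21.8% higher and 19.8% lower.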
